A study of Mus musculus with 6 samples.

Results

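Ly6a, Ly6c1, Ly6c2 and Ly6e are 4 genes of the mouse Ly6 family, and they were taken by symbol from a table of 24411 genes. All 4 were found in the table and all 4 had enough reads to be tested. The table holds bulk RNA-seq of mouse endothelial cell lines, with 3 libraries of UV2 and 3 of bEnd.3. UV2, which the labels also write UV♀2, has the strain (BALB/c x C57BL/6)F1, and no tissue of origin is given for it in the labels. bEnd.3 has the strain BALB/c and is known as a brain endothelial line immortalised with polyoma middle T antigen. Cells of both lines had stood at confluence on 10-cm dishes without serum for 3 days, and no agent or gene change is given for either. Each line is 1 cell line, and nothing in the labels says that its 3 libraries came from separate cultures. The p-values therefore measure only the spread between these libraries, which may be technical.

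Ly6 proteins are small, cysteine-rich proteins held on the outer face of the cell membrane by a glycosylphosphatidylinositol (GPI) anchor. They share their fold with the urokinase receptor and the complement inhibitor CD59, and many are encoded side by side in 1 gene cluster on mouse chromosome 15. Ly6a encodes the stem cell antigen Sca-1, which endothelium also carries and which brain-directed adeno-associated virus capsids use as a receptor in some mouse strains. Ly6c1 and Ly6c2 encode the antigen Ly-6C, known from monocytes and also from capillary endothelium, including that of the brain. Ly6e encodes a widely expressed antigen that restricts coronavirus entry and, in the mouse placenta, serves as the receptor for syncytin-A. Interferons are known to induce several Ly6 genes, and inbred strains, BALB/c and C57BL/6 among them, carry different alleles of the cluster.

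The 4 genes lie within the same stretch of chromosome 15 (build GRCm38.p6, the assembly of mm10). Ly6e spans 74955025 to 74959904, Ly6a 74994877 to 74998031, Ly6c1 75044018 to 75048920 and Ly6c2 75108161 to 75112066. Ly6e is read from the plus strand and the others from the minus strand, and no other annotated gene overlaps any of them. The coding sequences are shown because their likeness decides how reads could be assigned. Below are the first 150 coding bases, from the start codon, in GENCODE's GRCm38 transcripts. Capitals in Ly6c1 and Ly6c2 mark the 6 bases at which they differ from each other, capitals in Ly6a mark its 14 differences from Ly6c1, and Ly6e is shown unmarked.
Ly6c1: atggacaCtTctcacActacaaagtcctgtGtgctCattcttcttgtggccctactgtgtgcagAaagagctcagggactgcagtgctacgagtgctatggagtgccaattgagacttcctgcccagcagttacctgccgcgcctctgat
Ly6c2: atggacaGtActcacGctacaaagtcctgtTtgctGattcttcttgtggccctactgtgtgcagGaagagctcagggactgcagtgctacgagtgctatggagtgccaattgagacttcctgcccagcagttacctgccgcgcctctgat
Ly6a: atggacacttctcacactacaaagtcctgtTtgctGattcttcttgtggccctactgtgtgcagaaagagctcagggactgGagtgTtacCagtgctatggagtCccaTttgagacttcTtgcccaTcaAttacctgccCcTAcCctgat
Ly6e: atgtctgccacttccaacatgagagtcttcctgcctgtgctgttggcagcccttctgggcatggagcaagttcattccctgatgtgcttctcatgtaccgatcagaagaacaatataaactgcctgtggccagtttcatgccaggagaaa

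Over the whole coding sequence of 393 bases Ly6c1 and Ly6c2 were 97.7% identical, with 3 more differences after base 150 and an identical run of 188 bases. Ly6a was 81.8% identical to Ly6c1 and 81.6% to Ly6c2. Ly6e stood apart, with 53.5% identity to Ly6a and 50.1% to Ly6c1. Of the windows of 50 bases in the longest RefSeq-matched transcript, 31.7% of those of Ly6c1 occurred unchanged in Ly6c2 and 5.03% in Ly6a. No such window of Ly6e occurred in any other gene. At 100 bases, 15.3% of the Ly6c1 windows still occurred in Ly6c2 and none of the Ly6a or Ly6e windows occurred in another gene. The read length is not stated in the labels.

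The deposited counts carried a trace of this likeness. They are expected counts, in which a read that fits several genes is divided among them, so a gene that shares reads need not have a whole number. Ly6e had whole numbers in all 6 libraries. Ly6a, Ly6c1 and Ly6c2 had fractions in all 6, as did their neighbour Ly6i. The sum of these 4 genes was a whole number in all 6 libraries to within 0.015. No smaller set of these 4 gave whole sums. The split between Ly6c1 and Ly6c2 is therefore an estimate, and the value of Ly6e is free of it. The genome used for mapping is that of C57BL/6J. A difference between the lines, a difference between their strains, and reads of BALB/c alleles that did not map cannot be told apart here.

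All 4 genes were higher in UV2 than in bEnd.3. Ly6e and Ly6a were both a little over 2-fold higher in UV2. Ly6c1 was 1.68-fold higher. Ly6c2, a minor transcript beside Ly6c1, was 43.1-fold higher. In every gene each UV2 library lay above each bEnd.3 library. Across all 12720 tested genes, 67.1% were called, 33.9% higher in UV2 and 33.3% lower, so a call alone is common in this comparison. UV2 and bEnd.3 libraries were fully separated at 73.2% of tested genes, and at 36.5% UV2 was the higher. Beyond 2-fold, tested with edgeR's glmTreat, 19.4% of genes were called, 10.6% higher and 8.81% lower, and Ly6c2 was the 1 of the 4 genes called higher. In bulk RNA, more cells expressing a gene and more RNA per cell cannot be told apart.

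Levels are given as CPM, the count scaled by the library total and its TMM factor, and as mean ± SD over n = 3 libraries. Each log2 fold change is that of UV2 over bEnd.3, with its standard error (SE). The tests are edgeR's quasi-likelihood test over all genes with Benjamini-Hochberg adjustment. A gene is called at an adjusted p under 0.05. Totals were 21306441 to 28748128 expected counts per library, with 14614 to 15205 genes detected. Together the 4 genes took 0.315%, 0.268% and 0.358% of all counts in UV2 replicates 1, 2 and 3, against 0.173%, 0.144% and 0.167% in bEnd.3.

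Ly6e had 1295, 1185 and 1361 CPM in UV2 replicates 1, 2 and 3, against 624, 543 and 616 CPM in bEnd.3. The lowest UV2 library was well above the highest bEnd.3 library, and Ly6e had the smallest spread of the 4 genes in UV2 relative to its level. Its means were 1280 ± 88.7 CPM in UV2 and 594 ± 44.7 CPM in bEnd.3. The log2 fold change was 1.11 (SE 0.09, adjusted p = 2.24e-05), which is 2.15-fold. It was not called beyond 2-fold (adjusted p = 0.189 in glmTreat).

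Ly6a had 1146, 996 and 1453 CPM in UV2 replicates 1, 2 and 3, against 629, 499 and 546 CPM in bEnd.3. The groups did not overlap, and UV2 replicate 3 stood highest and UV2 replicate 2 lowest within its line. Its means were 1198 ± 233 CPM in UV2 and 558 ± 65.6 CPM in bEnd.3. The log2 fold change was 1.10 (SE 0.15, adjusted p = 0.000365), and the gene was not called beyond 2-fold (adjusted p = 0.407 in glmTreat).

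Ly6c1 had 706, 577 and 858 CPM in UV2 replicates 1, 2 and 3, against 450.3, 358 and 466 CPM in bEnd.3. The groups came closest to each other in this gene, with the lowest UV2 library above the highest bEnd.3 library. Its means were 714 ± 141 CPM in UV2 and 425 ± 58.5 CPM in bEnd.3, a log2 fold change of 0.75 (SE 0.16, adjusted p = 0.00365). With Ly6c1 and Ly6c2 summed into 1 feature before the fit, the log2 fold change was 0.78 (SE 0.16, adjusted p = 0.00316). The sum is thus close to Ly6c1 itself, since Ly6c2 adds little to it.

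Ly6c2 had 14.4, 9.501 and 18.9 CPM in UV2 replicates 1, 2 and 3, against 0.314, 0.366 and 0.305 CPM in bEnd.3. Behind these stood 342, 196 and 491 expected counts in UV2 and only 7.45, 8.97 and 8.91 in bEnd.3. CPM and the fit used these counts rounded to whole numbers, while the shares below and the ratios between genes used them unrounded. The log2 fold change was 5.43 (SE 0.34, adjusted p = 6.25e-06), and it was called beyond 2-fold (adjusted p = 1.48e-05 in glmTreat). Of the Ly6c1 and Ly6c2 counts together, Ly6c2 took 2%, 1.62% and 2.16% in the UV2 libraries and 0.0741%, 0.102% and 0.0648% in the bEnd.3 libraries. So nearly all Ly-6C transcript in both lines was assigned to Ly6c1. Because these fractions come from dividing shared reads between near copies, the fold of Ly6c2 is uncertain.

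**Figure D1:**
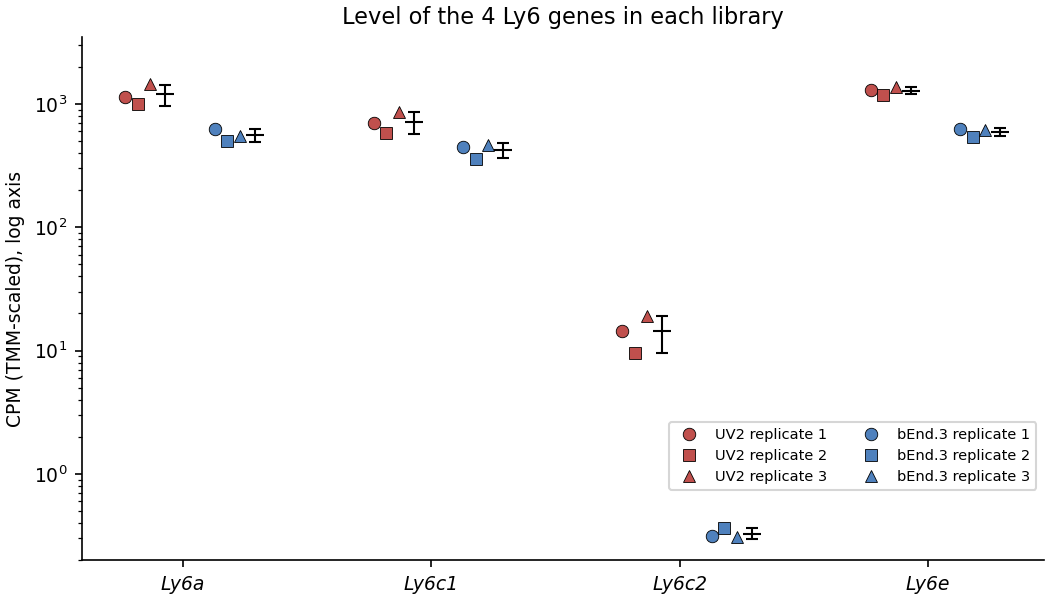
Points are the 6 libraries, with UV2 in red and bEnd.3 in blue and a marker shape for each replicate number; bars beside them are mean ± SD of 3 libraries, on a logarithmic CPM axis. The 3 UV2 points lie above the 3 bEnd.3 points in each gene, by far the most in Ly6c2, which had at most 18.9 CPM in UV2.

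Within UV2 all 4 genes had the same order of libraries, with replicate 3 highest and replicate 2 lowest. In bEnd.3, replicate 2 was lowest for Ly6a, Ly6c1 and Ly6e and highest for Ly6c2. The numbers of the replicates have no order of their own.

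Levels can be compared between genes only per length. Divided by the length of the longest RefSeq-matched transcript, Ly6a stood at 1255 ± 244 CPM per kb in UV2 and 584 ± 68.7 CPM per kb in bEnd.3. Ly6c1 stood at 845 ± 166 CPM per kb in UV2 and 503 ± 69.3 CPM per kb in bEnd.3. In UV2 the lowest Ly6a library (1043 CPM per kb) was just above the highest Ly6c1 library (1016 CPM per kb), and in bEnd.3 the ranges of both genes overlapped. Ly6e, whose transcript of 2281 bases is the longest, followed with 561 ± 39.0 CPM per kb in UV2 and 261 ± 19.5 CPM per kb in bEnd.3. Its libraries lay below those of Ly6c1 in both lines. Ly6c2 was last by a wide margin, with 17.4 ± 5.74 CPM per kb in UV2 and 0.4 ± 0.04 CPM per kb in bEnd.3. The order of Ly6a and Ly6c1 depends on the transcript length taken. With the shortest RefSeq-matched transcript of Ly6c1, its level was 1321 CPM per kb in UV2 and 787 CPM per kb in bEnd.3, above Ly6a.

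Ratios between genes within a library do not depend on library scaling. The Ly6e to Ly6a ratio of counts was 1.13, 1.19 and 0.937 in UV2 replicates 1, 2 and 3, against 0.992, 1.09 and 1.13 in bEnd.3. The lines overlapped, and the mean log2 ratio differed by 0.02 (two-sided exact permutation p = 0.9). Leaving out 1 library at a time moved this difference between -0.05 and 0.12, so it has no stable sign. The Ly6c1 to Ly6a ratio was 0.616, 0.579 and 0.591 in UV2, against 0.716, 0.717 and 0.855 in bEnd.3. Here the lines did not overlap, and the mean log2 ratio was lower in UV2 by a difference of -0.35 (exact permutation p = 0.1). The log2 ratio of Ly6c2 to Ly6c1 averaged -5.68 ± 0.22 in UV2 and -10.31 ± 0.34 in bEnd.3, a difference of 4.63 (exact permutation p = 0.1). This test exchanges all libraries freely and does not use the replicate numbers. With 3 libraries against 3, 0.1 is the smallest p that it can give. Over the 6 ratios tested, the adjusted p was 0.12 for each of the 5 whose libraries did not overlap and 0.9 for Ly6e to Ly6a.

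**Figure D2:**
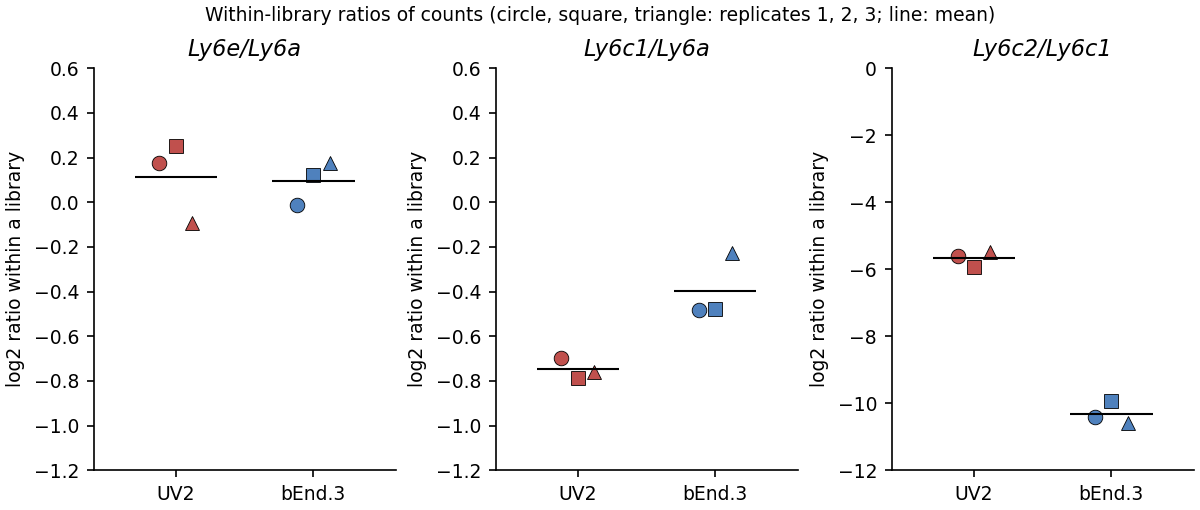
Each panel shows the log2 ratio of the counts of a pair of genes in each library, with UV2 at the left, bEnd.3 at the right and a line at the mean of 3 libraries. The lines overlap for Ly6e to Ly6a and separate for Ly6c1 to Ly6a and Ly6c2 to Ly6c1; the third panel has a wider axis.

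The promoters of Ly6c1 and Ly6c2 are shown because these near copies had such different levels. Each is the RefSeq window from 250 bases before to 50 bases after a transcript start (build GRCm38.p6, minus strand, 5′ to 3′), and 2 of the 4 genes were matched, Ly6a and Ly6e not. The Ly6c1 window is chr15:75048788-75049087 and the Ly6c2 window is chr15:75111922-75112221. RefSeq lists 2 such windows for each gene, and the one farther upstream is shown. Its start lies inside the span given above for the gene. Capitals mark runs of at least 12 bases that are identical in the global alignment used.
Ly6c1: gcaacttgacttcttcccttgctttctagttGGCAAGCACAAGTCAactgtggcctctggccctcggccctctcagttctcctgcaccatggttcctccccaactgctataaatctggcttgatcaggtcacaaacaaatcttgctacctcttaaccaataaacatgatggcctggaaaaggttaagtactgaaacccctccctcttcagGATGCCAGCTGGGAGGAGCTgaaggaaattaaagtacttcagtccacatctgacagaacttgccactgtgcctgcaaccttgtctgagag
Ly6c2: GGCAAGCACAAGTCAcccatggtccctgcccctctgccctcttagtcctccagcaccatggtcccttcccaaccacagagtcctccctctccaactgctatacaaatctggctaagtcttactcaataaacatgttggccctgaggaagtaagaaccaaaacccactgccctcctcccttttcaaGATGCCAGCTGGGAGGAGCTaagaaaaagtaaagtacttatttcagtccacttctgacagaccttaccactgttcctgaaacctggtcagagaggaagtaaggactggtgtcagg

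Aligned end to end, these windows were 62.3% identical over 334 columns, with every gap counted as a difference. The Ly6c2 window starts inside the Ly6c1 window in that alignment, so bases beyond the shared stretch lower this share. It is therefore not directly comparable with the 97.7% of the coding sequences. In that alignment 2 identical runs reached 12 bases, the longer with 20 bases. Off that alignment, 1 more run of 12 bases occurs in both windows and is not marked. The ETS core GGAA, searched on both strands, occurred 4 times in each window, and 96.0% of all 32851 promoter windows of that length hold it. On both strands together, TATAAA occurred once in the Ly6c1 window and not in the Ly6c2 window, and 13.6% of all windows hold it. CACCC occurred once in the Ly6c2 window and not in the Ly6c1 window, and 57.5% of all windows hold it. The interferon-stimulated response pattern, a pair of GAAA runs 2 bases apart, occurred in neither window on either strand, and in 3.44% of all windows. The STAT pattern TTCNNNGAA, which reads the same on both strands, also occurred in neither, and in 8.3% of all windows. These letters are a description of this stretch and not of any factor's binding.

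Around the cluster, the table held 21 other genes within 500 kb of the 4, of which 7 had enough counts to be tested. Of these, 3 were higher in UV2, 2 were lower and 2 were not called, with a median log2 fold change of -0.14 beside -0.01 over all tested genes. The 3 higher ones were Ly6i and Ly6f, further members of the cluster, and Them6. Ly6i lies between Ly6e and Ly6a and had 1.52, 1.41 and 2.08 CPM in UV2 replicates 1, 2 and 3, against 0.718, 0.692 and 0.407 CPM in bEnd.3 (log2 fold change 1.48, SE 0.30, adjusted p = 0.00304 in edgeR). Its counts held fractions, and of the windows of 50 bases of Ly6a, 3.42% occurred in Ly6i, while none of those of Ly6c1 or Ly6c2 did. Ly6f had 10.00 ± 2.36 CPM in UV2 and 4.18 ± 1.51 CPM in bEnd.3 (log2 fold change 1.25, SE 0.28, adjusted p = 0.00456 in edgeR). Its counts were whole numbers. Farther off, Them6 rose to 14.8 ± 1.19 CPM in UV2, against 3.06 ± 0.371 CPM in bEnd.3. Arc, the neuronal activity gene, which is named here after its value was seen, was lower in UV2 (log2 fold change -2.35), as was Lynx1. Jrk was not called (log2 fold change -0.14, adjusted p = 0.241 in edgeR), and neither was Gpihbp1. The 6 tested Ly6 genes from Ly6e to Ly6f were all higher in UV2, but this span was not set in advance. Ly6a, Ly6c1, Ly6c2 and Ly6i share reads, so these 4 are not fully separate readings. Of the 5 other tested genes around that span, 1 was higher, 2 were lower and 2 were not called. They include the family genes Lynx1 and Gpihbp1. The family gene Ly6d, not tested, had 1 count in the UV2 libraries together and 144 in those of bEnd.3. Over all tested genes, 33.9% were higher and 33.3% lower.

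**Figure D3:**
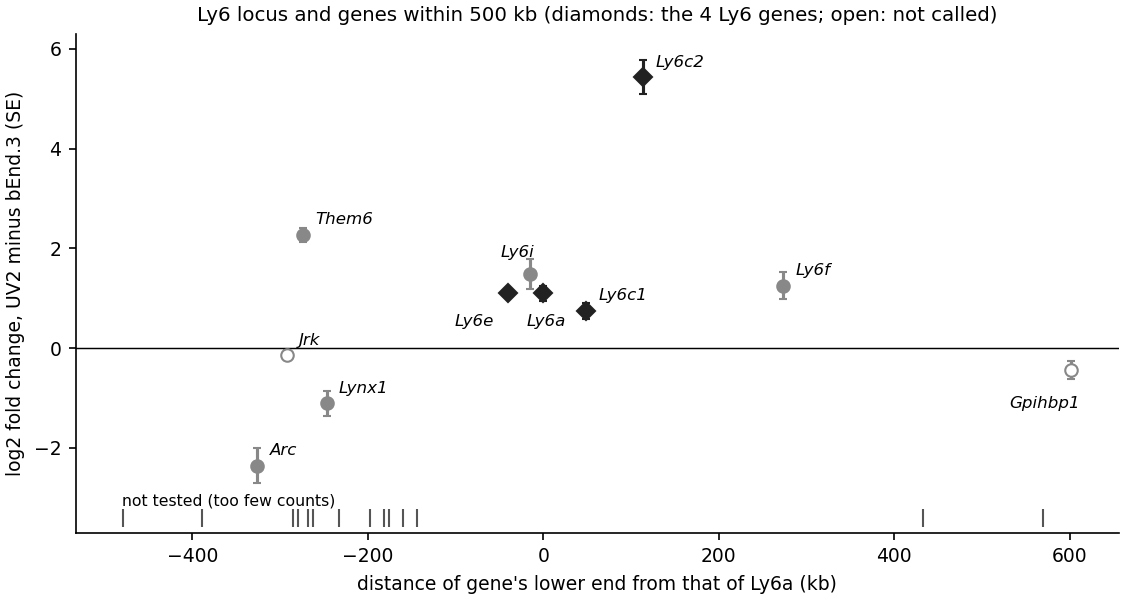
Log2 fold changes (UV2 minus bEnd.3, bars are SE) are plotted against the distance in kb from the lower end of Ly6a, with ticks at the bottom for genes with too few counts to test. The Ly6 genes from Ly6e to Ly6f are above 0, and Ly6c2 at 5.43 stands far above its neighbours.

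The wider Ly6/uPAR family, which has genes on several chromosomes, was mixed. Of 36 other family genes in the table, 15 had 0 counts in all libraries and 11 were tested. Of these 11, 5 were higher in UV2, 5 were lower and 1 was not called, with a median log2 fold change of -0.44. Among all tested genes, 33.9% were higher and 33.3% lower. Cd59a, which inhibits the complement membrane attack complex, had 128 ± 28.8 CPM in UV2 and 47.1 ± 6.24 CPM in bEnd.3 (log2 fold change 1.45, SE 0.17, adjusted p = 0.000157 in edgeR). Its near copy Cd59b, with which it may share reads, had 1.68 ± 0.556 CPM in UV2 and 0.769 ± 0.0916 CPM in bEnd.3. Lypd1, a binding partner of nicotinic acetylcholine receptors, had 3.75 ± 0.757 CPM in UV2 and 0.0969 ± 0.0548 CPM in bEnd.3, where 7 counts stood behind it (log2 fold change 5.27, SE 0.38, adjusted p = 1.44e-05 in edgeR).

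Lower in UV2 was Lynx1, another modulator of nicotinic receptors, with 5.51 ± 1.10 CPM in UV2 and 11.9 ± 3.34 CPM in bEnd.3 (log2 fold change -1.11, SE 0.24, adjusted p = 0.00447 in edgeR). Ly6g6d, a family gene of the major histocompatibility region on chromosome 17, had 0.290 ± 0.0842 CPM in UV2 and 2.43 ± 0.654 CPM in bEnd.3 (log2 fold change -3.07). Plaur, the urokinase receptor, had 21.9, 30.8 and 19.4 CPM in UV2 replicates 1, 2 and 3, against 56.2, 37.8 and 28.7 CPM in bEnd.3. The groups overlapped, and its log2 fold change of -0.77 was called (adjusted p = 0.0313 in edgeR). That call was lost without bEnd.3 replicate 1 (adjusted p = 0.0773), without bEnd.3 replicate 2 (0.0572), without UV2 replicate 1 (0.101) and without UV2 replicate 3 (0.0882). Gpihbp1, which carries lipoprotein lipase across the capillary wall, had 59.0 ± 12.9 CPM in UV2 and 80.1 ± 13.2 CPM in bEnd.3. It was not called (log2 fold change -0.44, adjusted p = 0.055 in edgeR), although with the replicate number as a block it was (adjusted p = 0.0222). Ly6d had 1 count in the UV2 libraries together and 144 in those of bEnd.3, and it was not tested. Its bEnd.3 to UV2 ratio was 130 (95% counting interval 23.03 to 5186), and its bEnd.3 libraries ranged widely, at 0.134, 3.54 and 1.83 CPM.

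**Figure D4:**
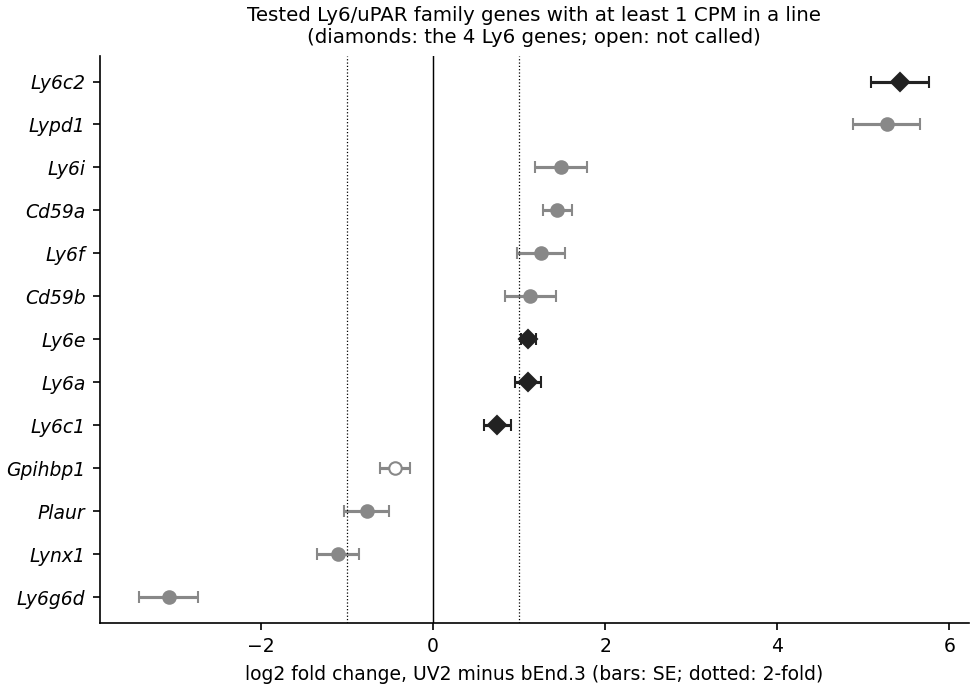
Log2 fold changes (UV2 minus bEnd.3) with SE are shown for the 4 Ly6 genes (diamonds) and other tested family genes of at least 1 CPM in a line (circles); the open circle was not called and dotted lines mark 2-fold. The 4 Ly6 genes lie between 0.75 and 5.43, and Ly6e has the shortest error bar of the 4.

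All 4 proteins need a GPI anchor, which is built in the endoplasmic reticulum and passed to the protein there. Of 32 tested genes of anchor synthesis and remodelling, 9 were higher in UV2, 9 were lower and 14 were not called. Their median log2 fold change was 0.02. The shares over all tested genes were 33.9% higher and 33.3% lower. Piga, the catalytic subunit of the first step, had 5.80 ± 0.640 CPM in UV2 and 10.03 ± 0.757 CPM in bEnd.3 (log2 fold change -0.79, SE 0.13, adjusted p = 0.0011 in edgeR), and Pigc of the same complex had a log2 fold change of -0.62. Pigl, the deacetylase of the second step, was higher in UV2 (log2 fold change 0.89), as was Tmem8 (log2 fold change 1.58, called beyond 2-fold). Of the 4 listed genes that release GPI-anchored proteins, 2 were tested, and Gdpd5 was lower in UV2 (log2 fold change -1.24).

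Other GPI-anchored surface proteins known from endothelium also went both ways, and 10 of 21 tested genes were higher in UV2, 5 were lower and 6 were not called. This list shares Gpihbp1, Plaur and Lypd1 with the family list, and its median log2 fold change was 0.35. For comparison, 33.9% of all tested genes were higher and 33.3% lower. Nt5e, the ecto-nucleotidase CD73, had 60.5 ± 26.6 CPM in UV2 and 1.07 ± 0.787 CPM in bEnd.3 (log2 fold change 5.88, SE 0.52). Leaving out bEnd.3 replicate 1, its highest bEnd.3 library, gave 6.62 on the same scale. The glypican Gpc4 had 13.5 ± 2.05 CPM in UV2 and 0 counts in bEnd.3, at least 343-fold higher against a floor of 3 counts over the bEnd.3 libraries. Prnp, the prion protein gene, had 254 ± 13.9 CPM in UV2 and 960 ± 36.01 CPM in bEnd.3 (log2 fold change -1.92, SE 0.07). Another glypican, Gpc6, had 2 counts in the UV2 libraries together and 213 in those of bEnd.3, a bEnd.3 to UV2 ratio of 96.7 (95% counting interval 26.4 to 804).

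Interferon receptors and their JAK-STAT pathway, through which Ly6 genes are known to be induced, were read gene by gene from a list. The list as a whole was not tested. Of 18 tested genes, 11 were higher, 3 were lower and 4 were not called, with a median log2 fold change of 0.45. Beside this stand 33.9% higher and 33.3% lower over all tested genes. The transcription factor Irf1 had 70.7 ± 5.38 CPM in UV2 and 44.4 ± 4.71 CPM in bEnd.3 (log2 fold change 0.67, SE 0.10, adjusted p = 0.000509 in edgeR). Of the interferon-gamma receptor chains, Ifngr1 was higher in UV2 (log2 fold change 0.95, SE 0.12) and Ifngr2 was lower (log2 fold change -0.53, SE 0.11). The type I receptor chain Ifnar1 was not called, with 407 ± 17.9 CPM in UV2 and 387 ± 48.4 CPM in bEnd.3, and the receptor-bound kinase Tyk2 was lower (log2 fold change -0.52). The feedback inhibitors Socs1 and Socs3 had the highest values of the list, with log2 fold changes of 1.51 (SE 0.22) and 1.48 (SE 0.26). The part of this pathway in the Ly6 levels was not tested.

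**Figure D5:**
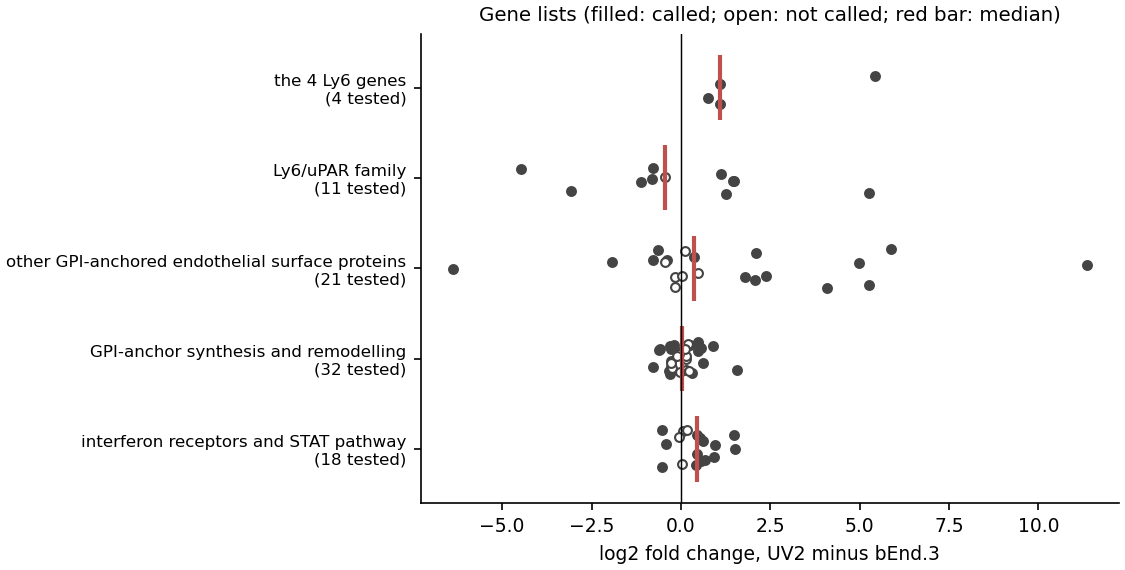
Each point is a tested gene, placed by its log2 fold change (UV2 minus bEnd.3) and grouped by list, with filled points for called genes, open points for those not called and a red bar at the median. The 4 Ly6 genes are all on the side of UV2, while the other lists hold genes on both sides of 0; the point farthest right is Gpc4, whose fitted value depends on the prior count.

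Ly6 antigens also mark leukocytes and mesenchymal cells, so their markers were read beside the Ly6 values. The 12 endothelial markers summed to 12000 to 13700 CPM in UV2 and 12400 to 13000 CPM in bEnd.3. They went both ways, with 2 higher in UV2, 5 lower and 5 not called, beside 33.9% higher and 33.3% lower over all tested genes. Vwf (870 CPM in UV2 and 84.6 CPM in bEnd.3) and Tie1 (2210 CPM in UV2 and 1198 CPM in bEnd.3) were higher. Emcn (281 CPM in UV2 and 780.2 CPM in bEnd.3), Flt1 (43.7 CPM in UV2 and 148 CPM in bEnd.3), Eng, Erg and Cldn5 were lower, and Pecam1, Cdh5, Kdr, Tek and Esam were not called. Cldn5, the claudin of tight brain endothelium, had only 18 counts in the UV2 libraries together, against a mean of 1052 CPM in bEnd.3. The 9 leukocyte markers in the table summed to 609 to 631 CPM in UV2 and 91.3 to 160 CPM in bEnd.3. Nearly all of this came from 2 markers of myeloid cells, the lysozyme gene Lyz2 and the lysosomal gene Cd68. Their means were 330 and 285 CPM in UV2 and 1.27 and 116 CPM in bEnd.3. Both were called higher in UV2 (log2 fold changes 8.05 and 1.30). Of the 3 leukocyte markers tested, 2 were thus higher and 1, Csf1r, was not called, beside 33.9% higher and 33.3% lower over all tested genes. The leukocyte genes Ptprc, Cd3e and Adgre1 had 0 counts in UV2, and in bEnd.3 Ptprc had 1 count and the others 0. The other myeloid genes of the list had few counts. Itgam had 19 in the UV2 libraries together and 3 in those of bEnd.3, Csf1r 39 and 36, and S100a8 16 and 8. The 6 fibroblast markers summed to 7.90 to 16.4 CPM in UV2 and 1.57 to 2.85 CPM in bEnd.3, most of it Pdgfra. The collagen gene Col1a1 had 9 counts in the UV2 libraries together and 16 in those of bEnd.3. The 7 pericyte and smooth muscle markers summed to at most 5.70 CPM in UV2 and at most 1.09 CPM in bEnd.3. Of these, Pdgfrb had 302 counts in the UV2 libraries together and 21 in those of bEnd.3, and was called higher (log2 fold change 3.94). The 6 epithelial markers summed to under 1 CPM in each library of either line. The 6 platelet and red cell markers summed to 8.2 to 10.5 CPM in UV2 and 10.1 to 14.2 CPM in bEnd.3.

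The genes whose pattern over the 6 libraries was most like that of each Ly6 gene were found among 11247 genes, by the root mean square difference of log2 CPM after each gene's own mean was taken off. For Ly6a they were Fads3 (0.05), Alms1 (0.09) and Pus7l (0.1), with log2 fold changes of 1.06, 1.19 and 1.04. For Ly6c1 they were Hoxb4 (0.08), Arhgap39 (0.09) and Tmem42 (0.1). For Ly6e they were Cacna1a, Abcb6 and Spata5l1, each at 0.05. For Ly6c2 they were Serpina3f (0.09), Gldnos (0.17) and Mcoln2 (0.19). Serpina3f and Gldnos had 0 counts in bEnd.3, which puts them at least 71.3-fold (Serpina3f) and 73.3-fold (Gldnos) higher in UV2 against the floor of 3 counts, and Mcoln2 had a log2 fold change of 5.20. The log2 CPM used here holds edgeR's prior count, which sets the value of a gene at 0 counts, so the likeness of Serpina3f and Gldnos to Ly6c2 in bEnd.3 is not measured.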

How the data were processed

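Total RNA from trypsinised cells (RNeasy Micro Kit) entered TruSeq Stranded mRNA libraries, 3 of UV2 and 3 of bEnd.3, per the labels' protocols. Trim Galore, STAR, RSEM and mm10 appear in the submitters' processing notes, without versions, annotation or strand setting. The authors deposited expected counts per gene symbol, not normalized, and these were rounded to whole numbers here. Genes were kept by edgeR's filterByExpr (12720 of 24411), scaled by TMM (factors 0.969 to 1.027) and tested with edgeR's quasi-likelihood test with line as the only term; changes beyond 2-fold used glmTreat. p-values were adjusted over all tested genes by Benjamini-Hochberg. Deviations of same-numbered libraries of the lines correlated at 0.116, 0.21 and 0.257 across genes, against -0.275 to 0.0783 for other pairs. The lowest same-numbered value is thus close to the highest of the other pairs. The labels give only the number, so a pairing by number is possible but not established. The main fit and the ratio tests did not use the number. Values with the number as a block are given where they change a call.

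The 4 genes and all lists were chosen with earlier results of these data known. Genes named were the 4, other family genes of at least 1 CPM in a line, up to 2 highest and 2 lowest called genes of each pathway list, 4 fixed interferon genes (1 of them is not reported here), the 4 most abundant neighbours and the 3 most alike genes of each. Coding sequences came from GENCODE's GRCm38 transcripts and promoters and positions from RefSeq GRCm38.p6. The test was tried on simulated data. Reads are not independent molecules, so intervals and floors cover counting error only. Replicates differed by a chi-square of 11.8 to 40.2 per degree of freedom, beyond sampling noise. edgeR 4.0.16, DESeq2 1.42.0 and limma 3.58.1 ran in R 4.3.3, and Biopython 1.88 and matplotlib 3.10.9 ran in Python 3.11.15. Alternatives changed the scaling, the filter, the tool, the block and the libraries.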

Additional observations from a re-analysis of the deposited data

How the results depend on the processing

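The 4 Ly6 genes kept their direction and their call under both other scalings (DESeq2's size factors, plain totals), both other filters (none, or 1 CPM in 3 libraries), both other tools (DESeq2, limma-voom), a replicate block, and without each library in turn. With libraries left out, the log2 fold change was 0.94 to 1.22 for Ly6a, 0.60 to 0.88 for Ly6c1, 5.17 to 5.65 for Ly6c2 and 1.05 to 1.16 for Ly6e. With the replicate block these were 1.09, 0.74, 5.42 and 1.11, and it changed no call of the 4. With Ly6a, Ly6c1, Ly6c2 and Ly6i summed into 1 feature, an alternative chosen after seeing the data, the log2 fold change was 0.97 (SE 0.15, adjusted p = 0.000771 in edgeR). The counts of genes called stayed within 1.5 times under each alternative. The difference in log2 Ly6e to Ly6a ratio was -0.0538 to 0.119 with a library left out, below 0 without UV2 replicate 1, UV2 replicate 2 or bEnd.3 replicate 1, while the other 5 ratios kept theirs. Beyond these, calls of named genes changed for Gpihbp1, which was called under 6 alternatives, and for Plaur, which lost its call under 4. Depth limits Ly6c2 in bEnd.3, with under 10 counts per library.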
